A study of Mus musculus with 4 samples.

Results

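Alpha-beta T cells at the injury site of heterotopic ossification (HO, bone that forms in soft tissue) were taken from 2 droplet scRNA-seq libraries of unsorted cells. The members were chosen by their UMIs (unique molecular identifiers, here counts of RNA molecules) and not by clustering. A barcode was a member if it held at least 2 UMIs of Cd3d, Cd3e and Cd3g together, at least 1 UMI of Trbc1 or Trbc2, 0 UMIs of Trdc, at most 2 UMIs of C1qa, C1qb and C1qc together, and under 1% of its UMIs in Col1a1 and Col1a2. Barcodes were kept beforehand at 200 or more genes and at most 20% mitochondrial UMIs. The rule gave 110 members of 2293 kept barcodes, 87 of 1415 in one library (6.15%, 95% Wilson interval 5.01 to 7.52%) and 23 of 878 in the other (2.62%, 1.75 to 3.90%). The intervals cover counting error only.

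Both libraries came from Hoxa11CreER;ROSA-LSL-TdTomato;Hif1a fl/fl mice with burn/tenotomy (BT), a skin burn with transection of the Achilles tendon. They had been given 75 mg/kg tamoxifen daily for 5 days, followed by 9 days of washout, and the tenotomy site was harvested at day 7 after injury. One library held replicates 1 and 2 together (the first library below) and the other replicate 3. Values are given in that order throughout, as UMIs and as CPM, UMIs per 1000000 UMIs of the summed class in that library. Both libraries carry the same floxed allele and Cre, so no comparison of genotypes was possible here. The Hoxa11 driver acts in the limb mesenchyme of the zeugopod, and recombination in T cells was not measured. A pair of Visium sections, A1 and B1, came from 10-week-old male wild-type C57BL/6 mice 7 days after BT.

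Alpha-beta T cells recognise peptide on MHC molecules through a receptor built of an alpha and a beta chain, which signals through the CD3 chains. CD8 T cells read MHC class I and can kill target cells, CD4 T cells read MHC class II and help or restrain other cells, and Foxp3 marks the regulatory CD4 cells. Gamma-delta T cells carry the other receptor pair, and in mouse skin and joints many of them make IL-17A. In mouse muscle, regulatory T cells gather after injury and release amphiregulin, a growth factor for repair.

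The deposited matrices held 2303 and 1266 barcodes, of which 806 and 305 were under the gene minimum. Members had a median of 6554 and 8505 UMIs (range 719 to 42728 and 4063 to 28302) and of 2062 and 2227 genes, and summed to 722728 and 215744 UMIs. No barcode sequence of a member occurred in both libraries. A doublet caller (Scrublet) marked 0 members. UMIs of other lineages exceeded 1% of the total in 6 and 1 members. Of these, 3 were over 1% in hemoglobin, 2 in neutrophil genes and 1 in mesenchyme genes, so at least 1 passed the limit only over the lists together. Hemoglobin reached 6412 UMIs in the first library, 6365 of them in 3 barcodes. Xist, the RNA that coats the inactive X chromosome of female cells, had 754 UMIs in the members of the first library and 0 in those of replicate 3. The labels give no sex for them.

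The values just inside and outside the rule were few. In the library of replicates 1 and 2, 4 members had exactly 2 Cd3 UMIs and 1 member had exactly 1 Trbc UMI. There, 4 barcodes met the rest of the rule with 1 Cd3 UMI and 2 barcodes failed on C1q alone. In replicate 3 all of these counts were 0, and its members held 3 to 35 Cd3 UMIs. Barcodes with 2 or more Cd3 UMIs but neither Trbc nor Trdc numbered 4 and 1. The median member held 12 and 15 Cd3 UMIs and 10 and 14 Trbc UMIs.

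The beta-chain constant genes did not separate members from gamma-delta cells by themselves, since 25 of 26 and 18 of 18 Trdc-positive lymphocytes (the barcodes that met the Cd3, C1q and collagen limits and held Trdc) also carried a Trbc UMI. NK cells, which the Cd3 limit left out, had a median of 5 and 4.5 Trbc UMIs. The label was therefore checked on Trac, the alpha-chain constant gene, which the rule did not use. At least 1 Trac UMI was found in 79 of 87 and 19 of 23 members, against 12 of 26 and 5 of 18 Trdc-positive lymphocytes. Macrophages held 1 and 0 Trac UMIs and mesenchymal cells 17 and 20 (1.03 and 1.45 CPM). Of the genes Cd163l1, Trdv4, Tcrg-C1 and Blk, which mark gamma-delta cells, at least 1 UMI was found in 6 and 1 members, against 25 of 26 and 17 of 18 Trdc-positive lymphocytes. A further 7 and 4 members had neither Trac nor any of those 4 genes. The NK genes Ncr1, Klrb1c and Klre1 were found in 7 and 0 members. The label thus fitted most members, while 11 of the 110 had neither sign and 7 carried a UMI of a gamma-delta gene.

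Icos, the inducible costimulator and the remaining gene given for the label, was found in 71 of 87 and 22 of 23 members (759.6 and 1275 CPM). Trdc-positive lymphocytes had 744 and 955 CPM, and the difference did not pass the test (log2 fold change 0.21 ± 0.31 SE, adjusted p = 0.846). Macrophages held 0.858 and 0 CPM. Icos marked T cells of both receptor kinds here, not alpha-beta cells alone. Each kind of V segment was seen in a minority of members. A Trbv UMI was found in 16 and 5 of them, with 9 and 5 different genes. At most 4 members had the same one (Trbv3), and no member had more than 1 Trbv gene. Trav UMIs were found in 30 and 1 members, and 4 and 0 members held 2 or more Trav genes.

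Promoters are shown for 4 genes that were present in one set of T cells and at or near 0 in another: Cd8a and Foxp3, which define subsets, Ctla4, which was high in the regulatory cells, and Il17a, which was high in Trdc-positive lymphocytes. Each stretch holds the 250 bases before and the first 50 bases after the RefSeq start (GRCm38.p6, plus strand), and capitals mark the TATA box letters TATAAA on either strand. Cd8a lies at chr6:71373177-71373476, Ctla4 at chr1:60908775-60909074, Foxp3 at chrX:7579426-7579725 (the first of 2 starts listed) and Il17a at chr1:20730655-20730954.
Cd8a: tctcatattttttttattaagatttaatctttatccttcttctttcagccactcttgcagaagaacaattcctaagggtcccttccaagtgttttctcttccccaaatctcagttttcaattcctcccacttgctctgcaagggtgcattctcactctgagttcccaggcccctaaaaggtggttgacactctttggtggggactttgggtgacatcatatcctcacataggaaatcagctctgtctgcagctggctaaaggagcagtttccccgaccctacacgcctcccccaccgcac
Ctla4: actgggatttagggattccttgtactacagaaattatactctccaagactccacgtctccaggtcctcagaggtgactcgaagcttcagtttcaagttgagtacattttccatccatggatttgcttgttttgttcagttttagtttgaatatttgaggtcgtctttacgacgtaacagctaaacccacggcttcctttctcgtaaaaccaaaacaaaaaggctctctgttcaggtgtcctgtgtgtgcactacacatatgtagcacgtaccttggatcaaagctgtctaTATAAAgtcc
Foxp3: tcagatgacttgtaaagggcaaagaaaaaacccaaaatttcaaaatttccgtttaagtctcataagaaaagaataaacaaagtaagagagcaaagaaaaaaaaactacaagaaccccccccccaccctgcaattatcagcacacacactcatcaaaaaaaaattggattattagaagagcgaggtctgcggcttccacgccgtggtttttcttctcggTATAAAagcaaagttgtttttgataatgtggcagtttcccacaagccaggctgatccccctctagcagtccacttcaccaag
Il17a: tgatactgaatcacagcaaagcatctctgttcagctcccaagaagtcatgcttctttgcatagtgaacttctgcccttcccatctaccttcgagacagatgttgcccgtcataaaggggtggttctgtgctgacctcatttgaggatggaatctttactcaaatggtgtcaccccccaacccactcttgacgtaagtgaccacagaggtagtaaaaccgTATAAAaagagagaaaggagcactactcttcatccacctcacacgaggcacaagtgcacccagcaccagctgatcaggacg
The letters stood 32 bases before the start of Foxp3 and 31 bases before that of Il17a. In Ctla4 they stood 40 bases after the listed start, and the Cd8a window held none. Of 32851 promoters of the same length, 13.6% held these letters. A match describes the letters only.

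Members fell into coreceptor subsets. A UMI of Cd8a or Cd8b1 and none of Cd4 (Cd8 gate) was found in 39 members (44.8%, Wilson interval 34.8 to 55.3%) and 7 members (30.4%, 15.6 to 50.9%). A Cd4 UMI and none of Cd8a or Cd8b1 (Cd4 gate) was found in 22 members (25.3%, 17.3 to 35.3%) and 8 members (34.8%, 18.8 to 55.1%). Both were found in 2 and 1 members and neither in 24 (27.6%) and 7 (30.4%). The Cd8 gate thus held the larger count in the library of replicates 1 and 2, whereas in replicate 3 the counts were within 1 barcode of each other.

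Foxp3, the transcription factor of regulatory T cells, was found in 7 of 87 members (8.05%, 3.95 to 15.7%) and in 7 of 23 (30.4%, 15.6 to 50.9%). Of these, 4 and 5 also held a Cd4 UMI. The 2 members of the first library with both Cd4 and Cd8 UMIs were Foxp3-positive too. One of them held 8786 UMIs and the other 42728, against a median of 6554 over the members there. The 1 such member of replicate 3 was also Foxp3-positive and held 6832 UMIs, against a median of 8505. The shares differed between the libraries, and with 1 library each way this was not tested over animals.

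**Figure D1:**
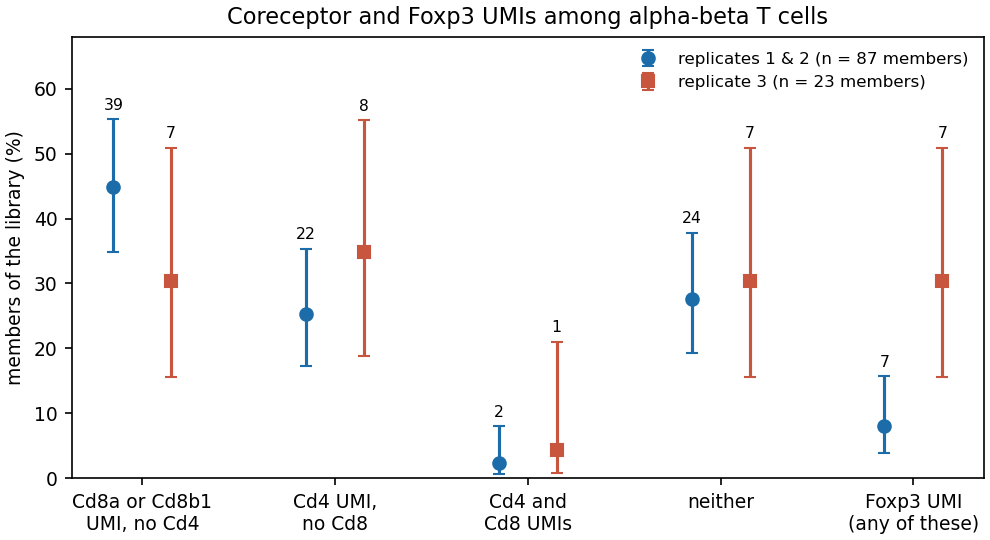
Share of alpha-beta T cells (percent of the members of a library) with coreceptor and Foxp3 UMIs, with 95% Wilson intervals and the number of members above each. The Cd8 gate held 39 of 87 members in the library of replicates 1 and 2 and 7 of 23 in replicate 3, and Foxp3 was found in 7 members of each library.

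The background of these genes was low in the other lymphocytes. Trdc-positive lymphocytes, with a median of 7935 and 9036 UMIs, held 0 UMIs of Cd4, Cd8a, Cd8b1 and Foxp3 in all 26 and 18 barcodes, which allows shares of barcodes with such a UMI, not of cells that express the gene, of up to 12.9 and 17.6% (Wilson). Mesenchymal cells, with a median of 42491 and 44625 UMIs, held a Cd4 UMI in 2 of 393 and 1 of 309 barcodes. Macrophages, which express Cd4 themselves, held one in 49 of 185 and 33 of 109. The shares moved with depth. With every barcode thinned to 1000 UMIs (1 member was shallower), Cd8a or Cd8b1 was found in 24.4 and 21.7% of members, Cd4 in 9.30 and 13.0% and Foxp3 in 4.65 and 8.70%. An absent coreceptor UMI is therefore no sign of an absent coreceptor. The members with neither had a median of 4688 and 9146 UMIs, against 7272 and 5477 in the Cd8 gate and 6546.5 and 8662 in the Cd4 gate, so they were the shallowest of the 3 sets in the first library and the deepest in replicate 3.

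**Figure D2:**
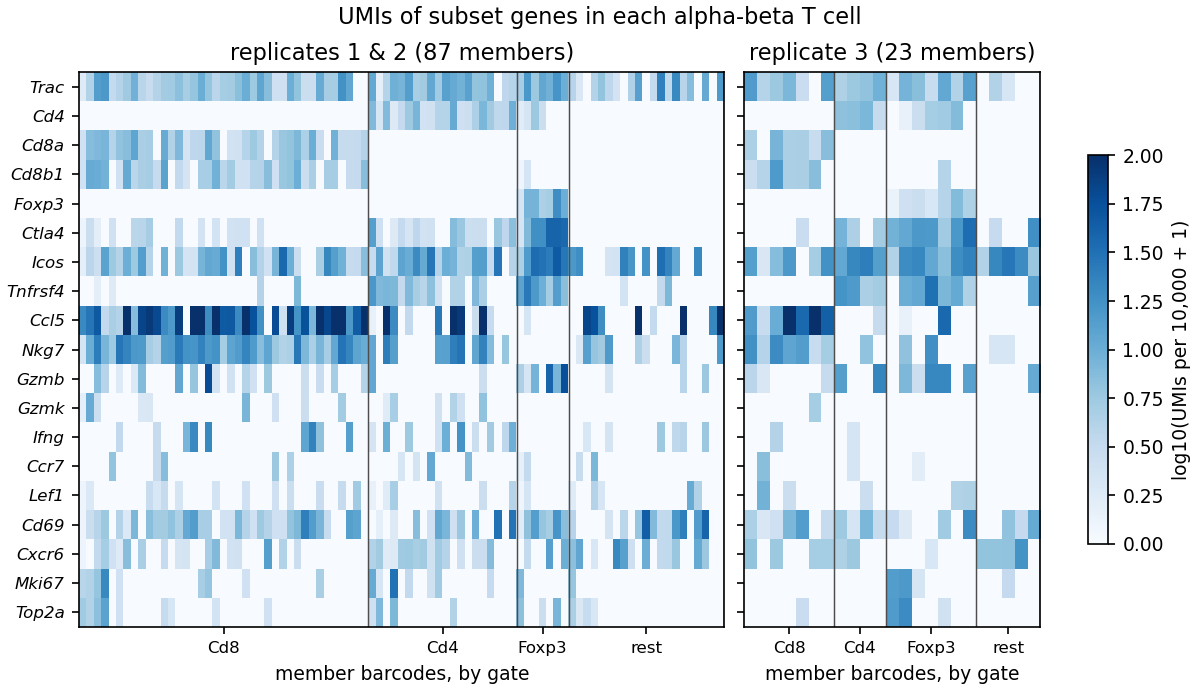
UMIs of 19 genes (rows, log10 of UMIs per 10000 plus 1) in each member (columns), grouped as Cd8 gate and Cd4 gate without Foxp3, any barcode with Foxp3, and the rest. Ccl5 and Nkg7 were frequent in the Cd8 gate, while Ctla4 and Tnfrsf4 were frequent in the Cd4 gate and in Foxp3-positive members.

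To find what the alpha-beta members held that their nearest neighbours did not, the UMIs of each class were added up within a library, and the sums were tested for alpha-beta T cells over Trdc-positive lymphocytes (26 and 18 barcodes, 193624 and 166574 UMIs). The test was edgeR's quasi-likelihood test with library as a covariate and Benjamini-Hochberg adjustment, and the Cd3, Trbc, Trdc and other genes of the rule were left out of the counts. Of 10315 genes tested, 83 rose in alpha-beta T cells (0.805%) and 101 fell (0.979%) at an adjusted p under 0.05. The median log2 fold change over all genes was 0.19, and no called gene differed in direction between the libraries. The p-values measure only the spread between these libraries. That spread was estimated over all classes in the fit, with macrophages, neutrophils, mesenchymal and endothelial cells among them. Of the genes that rose, 30 had 0 UMIs in Trdc-positive lymphocytes, and for those the size is given as a lower bound, with 3 UMIs over both libraries as the floor.

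Of 19 listed genes of T cell receptor and CD3 signalling tested, 6 rose, 1 fell and 12 did not pass (median log2 fold change 1.04). Cd28, the receptor for the costimulators CD80 and CD86, had 350 and 62 UMIs in alpha-beta T cells (484 and 287 CPM), against 1 and 0 UMIs in Trdc-positive lymphocytes (5.16 and 0 CPM), a log2 fold change of 7.14 ± 0.96 SE (adjusted p = 0.00558). Cd27, a TNF receptor family member that supports T cell survival, had 160 and 57 UMIs in alpha-beta T cells (221 and 264 CPM), against 0 and 2 UMIs in Trdc-positive lymphocytes (0 and 12.01 CPM), a log2 fold change of 5.41 ± 0.65 SE (adjusted p = 0.00346). Cd6, which binds ALCAM, had 191 and 56 UMIs in alpha-beta T cells (264 and 259.6 CPM), against 1 and 2 UMIs in Trdc-positive lymphocytes (5.16 and 12.01 CPM), a log2 fold change of 4.96 ± 0.56 SE (adjusted p = 0.00357). For these 3 genes the alpha-beta and Trdc-positive values lay far apart in both libraries.

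The kinase Lck, which phosphorylates the CD3 chains, had 209 and 48 UMIs in alpha-beta T cells (289 and 222 CPM), against 6 and 2 UMIs in Trdc-positive lymphocytes (31.0 and 12.01 CPM), a log2 fold change of 3.54 ± 0.49 SE (adjusted p = 0.00644). Cd5, a brake on receptor signalling, had 147 and 62 UMIs in alpha-beta T cells, against 6 and 0 UMIs in Trdc-positive lymphocytes (adjusted p = 0.0193). Cd2, which binds CD48 in the mouse, had 383 and 152 UMIs in alpha-beta T cells, against 22 and 5 UMIs in Trdc-positive lymphocytes (adjusted p = 0.0102). All 3 were seen in a minority of Trdc-positive barcodes: Lck in 4 of 26 and 2 of 18, against 73 of 87 and 16 of 23 members. Trac itself rose, with 399 and 101 UMIs in alpha-beta T cells (552 and 468 CPM), against 15 and 9 UMIs in Trdc-positive lymphocytes (77.5 and 54.0 CPM), a log2 fold change of 2.94 ± 0.31 SE (adjusted p = 0.00124). Of the T cell receptor segments tested (11, with genes of the rule counted in), it was the only one outside the rule to rise.

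Cd247, the zeta chain of CD3, went the other way, with 66 and 32 UMIs in alpha-beta T cells (91.3 and 148 CPM), against 65 and 48 UMIs in Trdc-positive lymphocytes (336 and 288 CPM), a log2 fold change of -1.49 ± 0.32 SE (adjusted p = 0.0402). Other core parts of the receptor machinery did not pass the test. The adaptor Lat had 222 and 68 UMIs in alpha-beta T cells (307 and 315 CPM), against 69 and 57 UMIs in Trdc-positive lymphocytes (356 and 342 CPM, adjusted p = 0.894). Thy1 and Bcl11b, the T cell surface protein and the factor that fixes T cell identity, had adjusted p values of 0.712 and 0.93.

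Ccl5, a chemokine of memory and effector T cells, had 2799 and 266 UMIs in alpha-beta T cells (3873 and 1233 CPM), against 0 and 0 UMIs in Trdc-positive lymphocytes (at least 392-fold higher, adjusted p = 0.00144). It was found in 56 of 87 and 10 of 23 members. Fasl, the ligand of the death receptor Fas, had 76 and 11 UMIs in alpha-beta T cells (105 and 51.0 CPM), against 0 and 0 UMIs in Trdc-positive lymphocytes (at least 11.1-fold higher, adjusted p = 0.0429). Cd8a and Cd8b1, which the members' rule did not use, had UMIs in alpha-beta T cells of both libraries (Cd8a 155 and 17, Cd8b1 149 and 23), against 0 in Trdc-positive lymphocytes (each at least 22.0-fold higher, adjusted p = 0.00808 and 0.0215). These 4 were the genes of the cytotoxic list that rose, of 13 tested (median 1.03). Cd4, the other coreceptor, had 76 and 30 UMIs in alpha-beta T cells, against 0 and 0 UMIs in Trdc-positive lymphocytes (at least 13.6-fold higher, adjusted p = 0.0408) and was the 1 helper gene called of 3 tested.

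Klrk1, the activating receptor NKG2D, fell, with 132 and 10 UMIs in alpha-beta T cells (183 and 46.4 CPM), against 106 and 62 UMIs in Trdc-positive lymphocytes (547 and 372 CPM), a log2 fold change of -2.09 ± 0.46 SE (adjusted p = 0.04996). Gzmb, the protease granzyme B, had 189 and 92 UMIs in alpha-beta T cells (262 and 426 CPM), against 8 and 2 UMIs in Trdc-positive lymphocytes (41.3 and 12.01 CPM) and did not pass (adjusted p = 0.0775). Nkg7, a granule protein, had 608 and 86 UMIs in alpha-beta T cells (841 and 399 CPM), against 80 and 32 UMIs in Trdc-positive lymphocytes (413 and 192 CPM, adjusted p = 0.318). Gzmb was found in 28 of 87 and 11 of 23 members, against 3 of 26 and 1 of 18 Trdc-positive lymphocytes.

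Of 15 regulatory genes tested, 3 rose, none fell and 12 did not pass (median 4.51, and 1.48 with genes at 0 UMIs set to their bound). Tnfrsf4, the costimulator OX40, had 204 and 118 UMIs in alpha-beta T cells (282 and 547 CPM), against 0 and 0 UMIs in Trdc-positive lymphocytes (at least 41.2-fold higher, adjusted p = 0.00058). Ctla4, the inhibitory receptor for CD80 and CD86, had 161 and 140 UMIs in alpha-beta T cells (223 and 649 CPM), against 3 and 2 UMIs in Trdc-positive lymphocytes (15.5 and 12.01 CPM), a log2 fold change of 4.83 ± 0.46 SE (adjusted p = 0.0012). Tnfrsf18, the costimulator GITR, had 135 and 124 UMIs in alpha-beta T cells (187 and 575 CPM), against 10 and 9 UMIs in Trdc-positive lymphocytes (51.6 and 54.0 CPM), a log2 fold change of 2.65 ± 0.43 SE (adjusted p = 0.0116). The CPM levels of all 3 in members were higher in replicate 3, the library with the larger Foxp3 share.

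Foxp3 itself had 31 and 17 UMIs in alpha-beta T cells, against 0 and 0 UMIs in Trdc-positive lymphocytes and did not pass (adjusted p = 0.121), nor did the regulatory genes Ikzf2, which encodes Helios (adjusted p = 0.198), and Il2ra, the alpha chain of the IL-2 receptor, which had 75 and 78 UMIs in alpha-beta T cells (104 and 362 CPM), against 75 and 85 UMIs in Trdc-positive lymphocytes (387 and 510.3 CPM). Areg, amphiregulin, had 73 and 87 UMIs in alpha-beta T cells (101 and 403 CPM), against 69 and 76 UMIs in Trdc-positive lymphocytes (356 and 456 CPM, adjusted p = 0.646), so in these libraries it was present in both classes. Among the 15 activation and checkpoint genes tested, 4 rose: the 3 above and Entpd1, the ectonucleotidase CD39, with 18 and 4 UMIs in alpha-beta T cells, against 0 and 0 UMIs in Trdc-positive lymphocytes (adjusted p = 0.0393). Pdcd1, the receptor PD-1, did not pass (adjusted p = 0.0658), with 52 and 19 UMIs in alpha-beta T cells (71.9 and 88.1 CPM), against 45 and 45 UMIs in Trdc-positive lymphocytes (232 and 270.1 CPM).

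Homing genes were split. Cxcr3, the receptor for interferon-induced chemokines, had 77 and 14 UMIs in alpha-beta T cells (107 and 64.9 CPM), against 0 and 0 UMIs in Trdc-positive lymphocytes (at least 11.6-fold higher, adjusted p = 0.0322), and it was the only chemokine receptor of 12 tested to rise. Klf2, a factor that keeps T cells recirculating, had 125 and 34 UMIs in alpha-beta T cells (173 and 158 CPM), against 9 and 5 UMIs in Trdc-positive lymphocytes (46.5 and 30.0 CPM), a log2 fold change of 2.09 ± 0.41 SE (adjusted p = 0.0259). None of 13 tissue-residency genes passed (median -0.76). Cxcr6 among them had 164 and 51 UMIs in alpha-beta T cells (227 and 236 CPM), against 140 and 217 UMIs in Trdc-positive lymphocytes (723 and 1303 CPM, adjusted p = 0.0668).

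An interferon-induced gene stood far apart. Ifi27l2a had 404 and 144 UMIs in alpha-beta T cells (559 and 667 CPM), against 0 and 1 UMIs in Trdc-positive lymphocytes (0 and 6.00 CPM), a log2 fold change of 7.81 ± 0.78 SE (adjusted p = 0.000583). It was the only one of 14 interferon-response genes that rose (median 2.43, and 1.59 with genes at 0 set to their bound), while Isg15, the classic interferon-induced ubiquitin-like protein, had 88 and 23 UMIs in alpha-beta T cells (122 and 107 CPM), against 16 and 14 UMIs in Trdc-positive lymphocytes (82.6 and 84.0 CPM, adjusted p = 0.81). The Gimap genes, GTPases that support lymphocyte survival, were noticed after the values were seen. Of 8 tested, 6 rose (Gimap1, Gimap3, Gimap4, Gimap6, Gimap7 and Gimap9), and together they held 938 and 211 UMIs in alpha-beta T cells (1298 and 978 CPM), against 20 and 27 in Trdc-positive lymphocytes (103 and 162 CPM). For example, Gimap6 had 141 and 31 UMIs in alpha-beta T cells, against 1 and 0 UMIs in Trdc-positive lymphocytes (adjusted p = 0.00346).

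**Figure D3:**
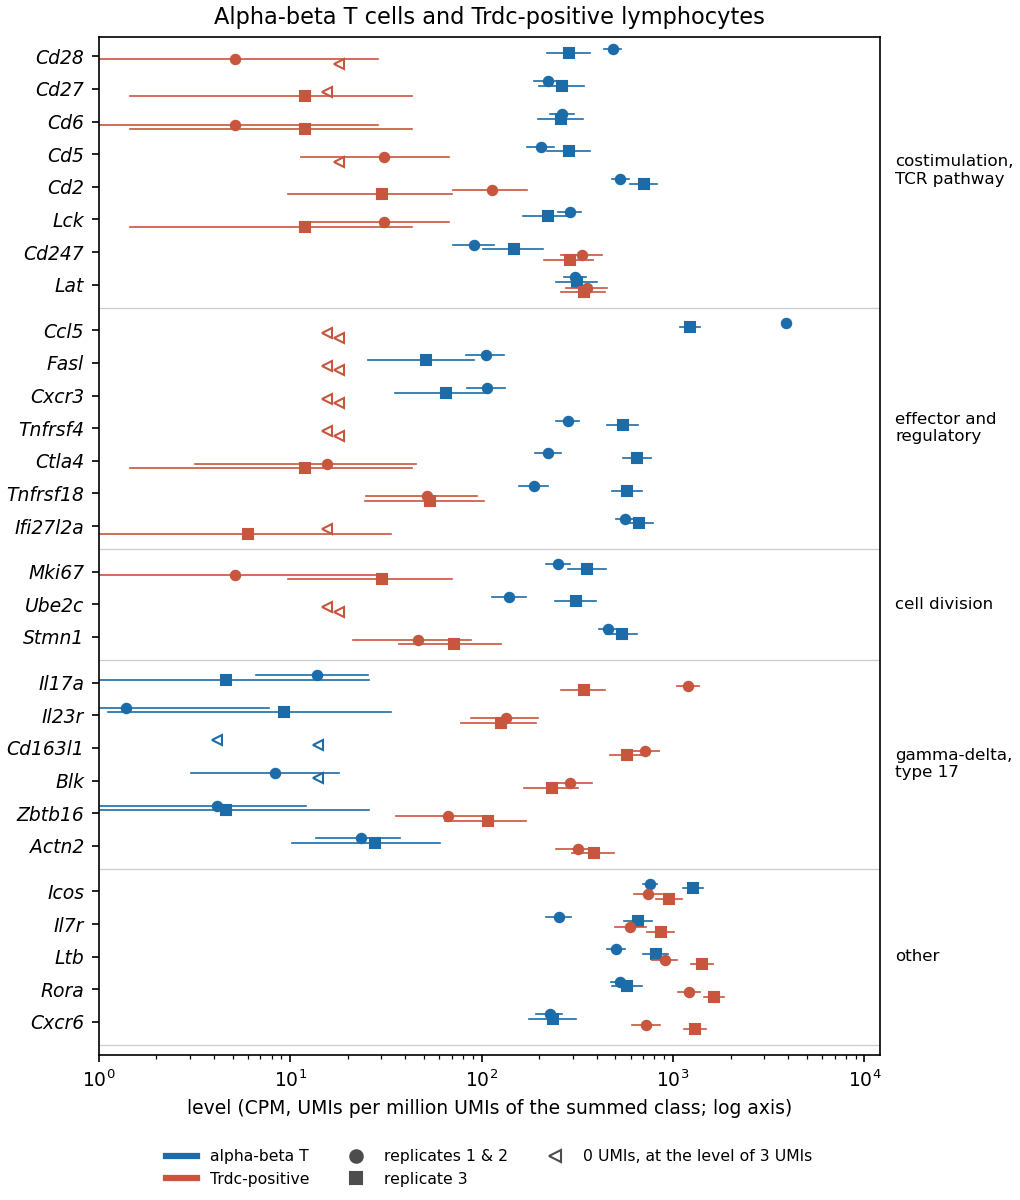
Levels (CPM of the summed class, log axis) of 29 genes in alpha-beta T cells and Trdc-positive lymphocytes in each library, with exact 95% Poisson intervals cut at 1 CPM and open markers for 0 UMIs, drawn at the level of 3 UMIs. Cd28, Cd27, Cd6, Ccl5 and Tnfrsf4 lay higher in alpha-beta T cells in both libraries and Il17a, Cd163l1 and Actn2 lay lower, while Icos and Lat overlapped.

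Dividing members were a minority. At least 2 UMIs of Mki67 and Top2a together were found in 19 of 87 and 4 of 23 members, against 3 of 26 and 3 of 18 Trdc-positive lymphocytes. In the first library 10 of the dividing members held a Cd8 UMI, 7 a Cd4 UMI and 2 a Foxp3 UMI. In replicate 3 they held 0, 2 and 3. Of 21 division genes tested, 7 rose and none fell (median 4.15, and 3.08 with genes at 0 set to their bound). Mki67 had 182 and 77 UMIs in alpha-beta T cells (252 and 357 CPM), against 1 and 5 UMIs in Trdc-positive lymphocytes (5.16 and 30.0 CPM), a log2 fold change of 4.13 ± 0.66 SE (adjusted p = 0.0102), and Stmn1, a microtubule regulator of dividing cells, had 332 and 117 UMIs in alpha-beta T cells (459 and 542 CPM), against 9 and 12 UMIs in Trdc-positive lymphocytes (46.5 and 72.0 CPM), a log2 fold change of 3.08 ± 0.44 SE (adjusted p = 0.00558). Ube2c, which the anaphase complex uses, had 101 and 67 UMIs in alpha-beta T cells, against 0 and 0 UMIs in Trdc-positive lymphocytes (at least 21.5-fold higher, adjusted p = 0.0146), but those UMIs came from 8 and 2 barcodes, and Top2a, the DNA topoisomerase of dividing cells, did not pass (adjusted p = 0.0598). The Mki67 UMIs of replicate 3 were concentrated too, with 37 and 36 of the 77 in 2 barcodes. The barcode with 37 was the 1 member of that library over 1% in mesenchyme genes. In the first library the most in 1 barcode was 39 of 182. Without the 7 members and 2 Trdc-positive barcodes over 1% other-lineage UMIs, the division genes Birc5, Ccnb2, Cdk1 and Tpx2 no longer passed. Mki67 still passed there (log2 fold change 3.77, adjusted p = 0.0126).

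Of 18 listed genes of gamma-delta and type 17 cells tested, 10 fell, none rose and 8 did not pass (median -3.30, and -2.92 with genes at 0 set to their bound). Il17a, the cytokine, had 10 and 1 UMIs in alpha-beta T cells (13.8 and 4.64 CPM), against 232 and 57 UMIs in Trdc-positive lymphocytes (1198 and 342 CPM), a log2 fold change of -6.36 ± 0.34 SE (adjusted p = 7.51e-05), and only 2 and 1 members held a UMI of it. Cd163l1, the scavenger receptor of gamma-delta cells, had 0 and 0 UMIs in alpha-beta T cells, against 139 and 96 UMIs in Trdc-positive lymphocytes (718 and 576 CPM), at least 204-fold lower (adjusted p = 0.000834). Blk, a kinase of IL-17-producing gamma-delta cells, had 6 and 0 UMIs in alpha-beta T cells (8.30 and 0 CPM), against 56 and 39 UMIs in Trdc-positive lymphocytes (289 and 234 CPM), a log2 fold change of -5.49 ± 0.59 SE (adjusted p = 0.00395).

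Il23r, the receptor that keeps IL-17 producers active, had 1 and 2 UMIs in alpha-beta T cells, against 26 and 21 UMIs in Trdc-positive lymphocytes (adjusted p = 0.0393). Zbtb16, the factor PLZF of innate-like T cells, had 3 and 1 UMIs in alpha-beta T cells, against 13 and 18 UMIs in Trdc-positive lymphocytes (adjusted p = 0.0176). All 5 genes were seen in few members of either library. Bcl2a1a, a relative of BCL2 that protects from cell death, had 1 and 0 UMIs in alpha-beta T cells, against 43 and 23 UMIs in Trdc-positive lymphocytes (adjusted p = 0.000201). It has near-identical copies, so its reads may be split among them. Bcl2a1d, 1 of the copies, had 164 and 43 UMIs in members without a Foxp3 UMI and 3 and 0 in those with 1 or more.

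Several genes of the T cell cytokine list were held by single barcodes. Of 18 tested, 1 rose (Ccl5) and 2 fell (Il17a and Tnf), and the median was 1.00, or 0 with genes at 0 set to their bound. Tnf had 40 and 3 UMIs in alpha-beta T cells (55.3 and 13.9 CPM), against 40 and 20 UMIs in Trdc-positive lymphocytes (207 and 120.1 CPM), a log2 fold change of -2.08 ± 0.45 SE (adjusted p = 0.0428). Ifng, interferon gamma, was found in 25 and 2 members, with 118 and 3 UMIs in alpha-beta T cells (163 and 13.9 CPM), against 0 and 0 UMIs in Trdc-positive lymphocytes, and did not pass (adjusted p = 0.0561). Tnfsf11, the osteoclast factor RANKL, was found in 14 and 4 members, with 32 and 12 UMIs in alpha-beta T cells (44.3 and 55.6 CPM), against 15 and 0 UMIs in Trdc-positive lymphocytes (77.5 and 0 CPM, adjusted p = 0.987). Tgfb1 had 182 and 43 UMIs in alpha-beta T cells (252 and 199 CPM), against 77 and 72 UMIs in Trdc-positive lymphocytes (398 and 432 CPM, adjusted p = 0.218).

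Among the type 2 cytokines, Il4 had 62 UMIs in the first library, 61 of them in 1 barcode, and 0 in replicate 3. Il5 had 8 and 27 UMIs, each from 1 barcode. Il13 had 8 and 0 UMIs in 5 and 0 members. Osm, oncostatin M, had 2 and 1 UMIs. Il22 had 0 UMIs in the 110 members. None of these cytokines was detected often enough to give a share of a subset.

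Lineage factors gave 1 call among 15 tested, Id3, an inhibitor of E proteins (adjusted p = 0.0402), and it did not pass without barcodes over 1% other-lineage UMIs (log2 fold change 0.69, adjusted p = 0.881). Tbx21, T-bet, the factor of interferon-gamma producers, had 56 and 6 UMIs in alpha-beta T cells (77.5 and 27.8 CPM), against 0 and 0 UMIs in Trdc-positive lymphocytes (adjusted p = 0.0965). Rora, a nuclear receptor, had 380 and 124 UMIs in alpha-beta T cells (526 and 575 CPM), against 235 and 274 UMIs in Trdc-positive lymphocytes (1214 and 1645 CPM, adjusted p = 0.208). Gata3, the type 2 factor, had 86 and 40 UMIs in alpha-beta T cells (119 and 185 CPM), against 16 and 23 UMIs in Trdc-positive lymphocytes (82.6 and 138 CPM, adjusted p = 0.937). None of these 3 passed the test.

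Few oxygen-sensing or glycolysis genes passed the test. Hif1a had 172 and 76 UMIs in alpha-beta T cells (238 and 352 CPM), against 22 and 44 UMIs in Trdc-positive lymphocytes (114 and 264 CPM), a log2 fold change of 0.63 ± 0.36 SE (adjusted p = 0.509). Counts of a 3′ tag outside the deleted part of a floxed gene check no deletion, and deletion in members was not measured. Of 18 HIF and oxygen-sensing genes none rose and 1 fell, Ero1l, an oxidase of the endoplasmic reticulum (log2 fold change -1.33 ± 0.30 SE, adjusted p = 0.0477). Ero1l did not pass without barcodes over 1% other-lineage UMIs (adjusted p = 0.0507). Of 18 glycolysis genes none rose and 1 fell, Hk2, hexokinase 2, with 24 and 15 UMIs in alpha-beta T cells (33.2 and 69.5 CPM), against 36 and 42 UMIs in Trdc-positive lymphocytes (186 and 252 CPM), a log2 fold change of -2.20 ± 0.45 SE (adjusted p = 0.0347). The medians were 0.26 and 0.28, near that of all genes. None of 18 dissociation and early-response genes passed (median -0.44).

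Other-lineage RNA touched some calls. Apoe, a macrophage gene, and Sparc, a mesenchymal gene, were also called higher in alpha-beta T cells, and neither passed without the barcodes over 1% other-lineage UMIs. Marcks, a kinase substrate, had 46 and 110 UMIs in alpha-beta T cells, against 0 and 0 UMIs in Trdc-positive lymphocytes (adjusted p = 0.0252) and was lost in the same way, as was Tnf (adjusted p = 0.0505). Of the 10 macrophage and monocyte genes tested, 1 was called, of 8 mesenchyme genes 1, and of 5 erythroid, 6 neutrophil and 7 endothelial and mural genes none. Hemoglobin Hbb-bs had 4005 and 10 UMIs in members, against 228 and 3571 in Trdc-positive lymphocytes. The part of this RNA in the other calls was not tested.

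By DESeq2 in place of edgeR, 136 genes were higher and 319 lower, and 14 of the 56 named genes no longer passed. Among them were Cd8a, Cd8b1, Fasl, Cxcr3 and Cd5 of the genes that rose, and Il17a, Cd163l1, Blk and Il23r of those that fell. Their directions were kept. Klrk1, Tnf, Hk2 and Ccl1 did not pass without library as a covariate, nor did Entpd1 and Id3 once barcodes under 5% ribosomal UMIs were left out. That limit also took the neutrophils out of the fit.

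Within the members, Cd8 gate members were set against Cd4 gate members (39 and 7 barcodes against 22 and 8). Of 5846 genes tested, none was called higher (0%) and 3 were called lower (0.0513%). By unadjusted p under 0.05, 221 were higher and 273 lower, and DESeq2 called 15 higher and 24 lower. The 3 lower genes were Tnfrsf4, Maf and Ctla4. Tnfrsf4 had 8 and 0 UMIs in Cd8 gate members (22.5 and 0 CPM), against 111 and 106 UMIs in Cd4 gate members (616 and 1242 CPM), a log2 fold change of -5.18 ± 0.50 SE (adjusted p = 0.00114). Maf, a factor of IL-10 and helper programmes, had 26 and 2 UMIs in Cd8 gate members (73.3 and 41.6 CPM), against 114 and 93 UMIs in Cd4 gate members (632 and 1089.7 CPM), a log2 fold change of -3.46 ± 0.39 SE (adjusted p = 0.00188). Ctla4 had 26 and 1 UMIs in Cd8 gate members (73.3 and 20.8 CPM), against 78 and 85 UMIs in Cd4 gate members (433 and 996 CPM), a log2 fold change of -2.97 ± 0.42 SE (adjusted p = 0.0351, and 0.0569 without the library term). Each was lower in the Cd8 gate in both libraries. The Cd4 gate held Foxp3-positive members too, and 20 of 22 and 4 of 8 had no Foxp3 UMI. In replicate 3 the Foxp3-positive ones held 9, 14, 26 and 24 of the 85 Ctla4 UMIs. They held 6, 30, 23 and 17 of the 106 Tnfrsf4 UMIs. In the first library 1 Foxp3-negative barcode held 31 of the 78 Ctla4 and 37 of the 111 Tnfrsf4 UMIs. The part of Foxp3-positive members in these calls was not tested.

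No cytotoxic gene passed the test between the gates. Ccl5 had 1758 and 240 UMIs in Cd8 gate members (4953 and 4987 CPM), against 738 and 2 UMIs in Cd4 gate members (4093 and 23.4 CPM, adjusted p = 0.537). A Ccl5 UMI was found in 37 of 39 and 7 of 7 Cd8 gate members, against 10 of 22 and 2 of 8 Cd4 gate members. In the Cd4 gate of the first library 2 barcodes held 346 and 199 of the 738 UMIs, so the summed level there rested on few barcodes. Nkg7 had 420 and 50 UMIs in Cd8 gate members (1183 and 1039 CPM), against 147 and 34 UMIs in Cd4 gate members (815 and 398 CPM, adjusted p = 0.648), and all 39 and 7 Cd8 gate members held a UMI of it. Ctsw, the protease cathepsin W, had 110 and 10 UMIs in Cd8 gate members (309.9 and 208 CPM), against 17 and 1 UMIs in Cd4 gate members (94.3 and 11.7 CPM, adjusted p = 0.415).

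Xcl1, a chemokine that draws cross-presenting dendritic cells, had 127 and 1 UMIs in Cd8 gate members, against 0 and 0 UMIs in Cd4 gate members (adjusted p = 0.0952). Ccl4, another chemokine, had 152 and 2 UMIs in Cd8 gate members, against 1 and 0 UMIs in Cd4 gate members (adjusted p = 0.299). Both rested on the first library, where 1 member held 94 of all 170 Xcl1 UMIs and 1 held 65 of 159 Ccl4 UMIs. Gzmb had 97 and 5 UMIs in Cd8 gate members, against 32 and 62 UMIs in Cd4 gate members (adjusted p = 0.799), so its order turned between the libraries. Of 10 cytotoxic genes tested none was called, with a median of 1.05 beside 0.01 for all genes.

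Cd40lg, the CD40 ligand that helps B cells and dendritic cells, had 4 and 0 UMIs in Cd8 gate members, against 18 and 4 UMIs in Cd4 gate members (adjusted p = 0.581). Il2ra had 7 and 0 UMIs in Cd8 gate members (19.7 and 0 CPM), against 13 and 42 UMIs in Cd4 gate members (72.1 and 492 CPM, adjusted p = 0.374), Foxp3 had 0 and 0 UMIs in Cd8 gate members, against 7 and 12 UMIs in Cd4 gate members (adjusted p = 0.44), and Areg had 0 and 0 UMIs in Cd8 gate members, against 6 and 65 UMIs in Cd4 gate members (adjusted p = 0.478). None of these 4 passed, although each had fewer UMIs in the Cd8 gate of both libraries. The Il4 UMIs lay in 2 Cd4 gate barcodes. Of 13 regulatory genes tested 2 fell in the Cd8 gate (median -3.72).

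Genes common to T cells did not pass between the gates. Trac had 183 and 32 UMIs in Cd8 gate members (516 and 665 CPM), against 122 and 48 UMIs in Cd4 gate members (677 and 562 CPM, adjusted p = 1), and Cd28 had 187 and 19 UMIs in Cd8 gate members (527 and 395 CPM), against 100 and 35 UMIs in Cd4 gate members (555 and 410.1 CPM, adjusted p = 1). Ifi27l2a had 659 and 748 CPM in the Cd8 gate, against 654 and 844 in the Cd4 gate (adjusted p = 1). Icos had 203 and 37 UMIs in Cd8 gate members (572 and 769 CPM), against 172 and 146 UMIs in Cd4 gate members (954 and 1711 CPM, adjusted p = 0.563). Of the 19 receptor-pathway genes none was called, with a median of -0.05. Ifng was split across both gates, with 68 and 2 UMIs in Cd8 gate members, against 43 and 1 UMIs in Cd4 gate members (adjusted p = 1). Hemoglobin UMIs lay almost wholly in the Cd8 gate, where Hbb-bs had 3989 in the first library, and their part in these values was not tested.

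**Figure D4:**
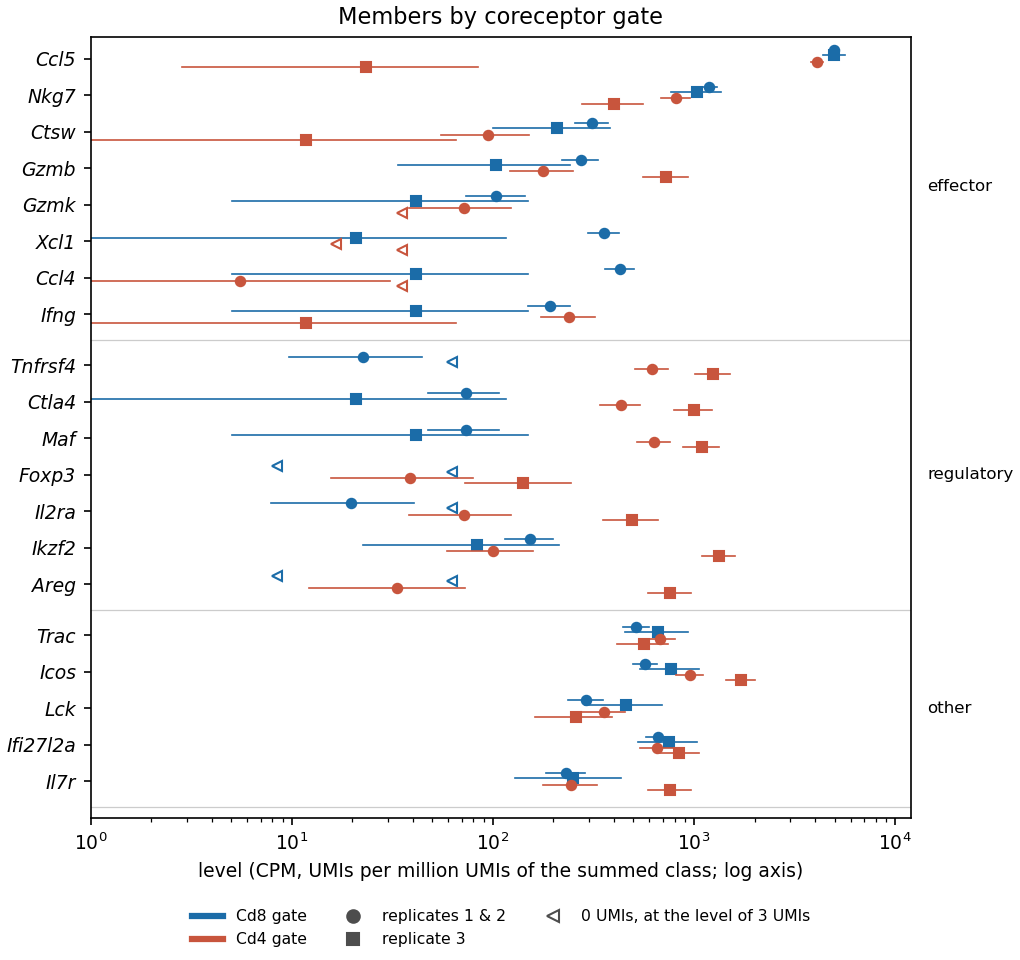
Levels (CPM, log axis) of 20 genes in Cd8 gate and Cd4 gate members in each library, with exact 95% Poisson intervals cut at 1 CPM and open markers for 0 UMIs, drawn at the level of 3 UMIs. Tnfrsf4, Ctla4 and Maf were lower in the Cd8 gate in both libraries, whereas Ccl5 was at 4953 and 4987 CPM in the Cd8 gate, against 4093 and 23.4 CPM in the Cd4 gate, where 2 of 22 barcodes of the first library held 346 and 199 of its 738 UMIs.

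Foxp3-positive members (7 in each library, 75749 and 98743 UMIs) were set against the 80 and 16 Foxp3-negative members. Of 8522 genes tested, 4 were called higher (0.0469%) and 16 lower (0.188%). Ctla4 had 78 and 118 UMIs in Foxp3-positive members (1029.7 and 1195 CPM), against 83 and 22 UMIs in Foxp3-negative members (128 and 188 CPM), a log2 fold change of 2.52 ± 0.26 SE (adjusted p = 0.00663), and all 7 Foxp3-positive members of each library held a UMI of it. Tnfrsf4 had 94 and 83 UMIs in Foxp3-positive members (1241 and 841 CPM), against 110 and 35 UMIs in Foxp3-negative members (170.0 and 299 CPM), a log2 fold change of 1.95 ± 0.33 SE (adjusted p = 0.0382). Both were higher in Foxp3-positive members of each library, and Tnfrsf4 did not pass by DESeq2 (adjusted p = 0.0664). The other 2 were Ube2c, with 53 of its UMIs in 1 barcode of the first library and 55 in 1 barcode of replicate 3, and Gpx7, a peroxidase of the endoplasmic reticulum, with 3 and 8 UMIs against 0 and 0. Neither passed without barcodes over 1% other-lineage UMIs (adjusted p = 0.128 for Ube2c and 0.0843 for Gpx7).

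Other regulatory genes had higher levels in Foxp3-positive members and did not pass. Ikzf2 had 70 and 94 UMIs in Foxp3-positive members (924 and 952 CPM), against 107 and 47 UMIs in Foxp3-negative members (165 and 402 CPM, adjusted p = 0.133). Tnfrsf9, the costimulator 4-1BB, had 89 and 47 UMIs in Foxp3-positive members (1175 and 476 CPM), against 13 and 32 UMIs in Foxp3-negative members (20.1 and 274 CPM, adjusted p = 0.133). Areg had 58 and 68 UMIs in Foxp3-positive members (766 and 689 CPM), against 15 and 19 UMIs in Foxp3-negative members (23.2 and 162 CPM, adjusted p = 0.133), in 6 and 3 of the 7 Foxp3-positive members. Of 15 regulatory genes 2 rose and none fell, with a median of 2.25 beside -0.13 for all genes.

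Il10, the anti-inflammatory cytokine, had 2 and 12 UMIs in Foxp3-positive members, against 3 and 1 UMIs in Foxp3-negative members (adjusted p = 0.0744). Il2ra had 38 and 38 UMIs in Foxp3-positive members (502 and 385 CPM), against 37 and 40 UMIs in Foxp3-negative members (57.2 and 342 CPM, adjusted p = 0.375), so its excess lay mainly in the first library. Gzmb had 62 and 62 UMIs in Foxp3-positive members (818 and 628 CPM), against 127 and 30 UMIs in Foxp3-negative members (196 and 256 CPM, adjusted p = 0.236). Icos had 104 and 127 UMIs in Foxp3-positive members (1373 and 1286 CPM), against 445 and 148 UMIs in Foxp3-negative members (688 and 1265 CPM, adjusted p = 0.927).

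Of the 16 genes that fell in Foxp3-positive members, 2 were on the naive and recirculating list. Tcf7, TCF-1, the factor of naive and stem-like T cells, had 0 and 1 UMIs in Foxp3-positive members (0 and 10.1 CPM), against 103 and 24 UMIs in Foxp3-negative members (159 and 205 CPM), a log2 fold change of -5.22 ± 0.93 SE (adjusted p = 0.043). Klf2 had 0 and 3 UMIs in Foxp3-positive members (0 and 30.4 CPM), against 125 and 31 UMIs in Foxp3-negative members (193 and 265 CPM), a log2 fold change of -4.06 ± 0.67 SE (adjusted p = 0.0243). They were the calls among 9 genes of that list tested (median -1.36). S1pr1, the exit receptor that Klf2 switches on, had 3 and 1 UMIs in Foxp3-positive members, against 46 and 13 UMIs in Foxp3-negative members and did not pass (adjusted p = 0.222).

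Klrd1, the NK receptor chain CD94, had 0 and 0 UMIs in Foxp3-positive members, against 149 and 16 UMIs in Foxp3-negative members (230.3 and 137 CPM), at least 12.6-fold lower (adjusted p = 0.0214), and Serpinb9, an inhibitor of granzyme B, had 0 and 0 UMIs in Foxp3-positive members, against 126 and 18 UMIs in Foxp3-negative members (at least 11.0-fold lower, adjusted p = 0.00873). Cd8a had 0 and 0 UMIs in Foxp3-positive members, against 155 and 17 UMIs in Foxp3-negative members (at least 13.1-fold lower, adjusted p = 0.043). Cd8a and Klrd1 were the 2 genes called of 12 on the cytotoxic list (median -6.53, and -3.08 with genes at 0 set to their bound). All 39 and 7 Cd8 gate members were among the 80 and 16 Foxp3-negative members. Their part in the lower values of this paragraph was not tested. Cd8a did not pass by DESeq2 (adjusted p = 0.645), nor Klrd1 without library as a covariate (adjusted p = 0.0763). Btg2, an early-response gene that restrains division, had 6 and 23 UMIs in Foxp3-positive members (79.2 and 233 CPM), against 484 and 109 UMIs in Foxp3-negative members (748 and 932 CPM), a log2 fold change of -2.76 ± 0.41 SE (adjusted p = 0.0157). Ccl5 had 1 and 25 UMIs in Foxp3-positive members (13.2 and 253 CPM), against 2798 and 241 UMIs in Foxp3-negative members (4325 and 2059.8 CPM) and did not pass (adjusted p = 0.0859). Xist was called too, with 22 and 0 UMIs against 732 and 0, so that call rested on 1 library.

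These calls came from few barcodes. The 2 Foxp3-positive members with both coreceptors held 51514 of the 75749 UMIs of their group in the first library, 42728 of them in 1 barcode. In replicate 3, 2 Foxp3-positive members held 28302 and 25253 of the 98743 UMIs. The deeper of these had 1 Foxp3 UMI and 23 of the 118 Ctla4 UMIs. It also held 37 Mki67 UMIs and was the 1 member of replicate 3 over 1% in mesenchyme genes. Without it the Foxp3-positive sum of replicate 3 was 70441 UMIs in 6 barcodes. When only the 2 groups compared entered the edgeR fit, 1 residual degree of freedom was left and 0 genes were called in either direction (adjusted p = 0.101 for Ctla4), with 145 higher and 173 lower of 1769 at an unadjusted p under 0.05, while DESeq2 on all classes called 131 higher and 111 lower.

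**Figure D5:**
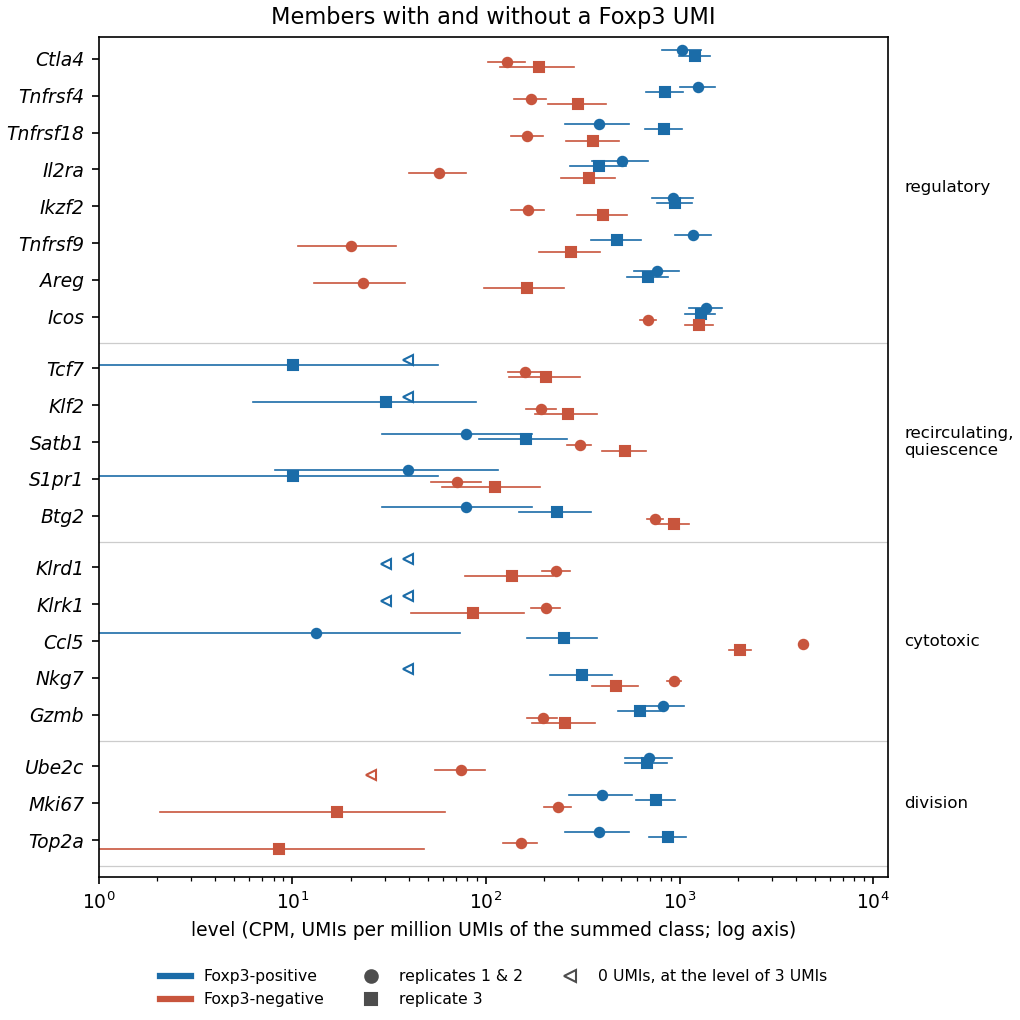
Levels (CPM, log axis) of 21 genes in Foxp3-positive and Foxp3-negative members in each library, with exact 95% Poisson intervals cut at 1 CPM and open markers for 0 UMIs, drawn at the level of 3 UMIs. Ctla4 and Tnfrsf4 were higher in Foxp3-positive members in both libraries, and Tcf7, Klf2 and Klrd1 were lower.

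The members with neither coreceptor (24 and 7, 135975 and 75442 UMIs) were a mixture by their UMIs. Trac had 64 and 14 UMIs in 19 and 4 of them (471 and 186 CPM). Icos was found in 14 and 7 (1081 and 1166 CPM). In replicate 3 they held 0 UMIs of Ccl5, against 302 in the first library, and 19 UMIs of Il1rl1, the IL-33 receptor, against 0. Gata3 had 37 and 31 UMIs, and the barcodes with 8 and 27 Il5 UMIs were in this set. Fcer1g and Tyrobp, adaptor genes of NK and myeloid cells, had 47 and 43 UMIs in the first library and 0 and 0 in replicate 3. All 6 and 0 Blk UMIs of the members were held here. These members had too few features in common to be given a name.

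In the Visium sections the same genes were close to the limit of detection. Section A1 had 3555 spots with 2259744 UMIs and section B1 3195 spots with 2308754 UMIs. The 5 genes Cd3d, Cd3e, Cd3g, Trbc1 and Trbc2 summed to 69 UMIs in 63 spots of A1 and 127 UMIs in 120 spots of B1. A spot with 2 or more of the 5 was found 0 times in A1 and 4 times in B1. Trac had 16 and 19 UMIs, Ctla4 18 and 31, Icos 17 and 36, and Foxp3 18 and 11, of which 11 in A1 came from 1 spot. Cd8b1 had 0 UMIs in both sections. Ccl5, at 3873 and 1233 CPM in the dissociated members, had 0 and 1 UMIs in the sections, and the part of the probe set in this was not tested. Spots hold several cells, so no T cell share was taken from them.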

How the data were processed

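The authors deposited filtered matrices of UMI counts for 2 scRNA-seq libraries (10x Genomics, mm10, Cell Ranger 5.0.1 per the labels) and for 2 Visium sections (Space Ranger, probe-based FFPE). Members and gene lists were chosen with earlier results of these data known. Deposited counts were read with Python 3.11.15, barcodes under 200 genes or over 20% mitochondrial UMIs were left out, and doublets were scored with Scrublet in scanpy 1.11.5 (expected rate 0.02) but not removed, since it marked 3 and 5 barcodes and no member. For each class, counts were added up within a library, and these sums went into edgeR 4.0.16 (R 4.3.3, glmQLFit and glmQLFTest, TMM, filterByExpr) over all classes, with library as a covariate. The SE of a log2 fold change is its size divided by the square root of edgeR's F statistic. The planned minimum of 20 barcodes per class and 10 per subset was lowered to 15 and 5 once barcode counts were known, since replicate 3 held 18 Trdc-positive lymphocytes and 7 or 8 barcodes per subset. DESeq2 1.42.0 was an alternative. The script was tested on simulated data.

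Named genes were up to 12 per direction with the largest change among those past an adjusted p of 0.05 and changed alike in both libraries, and members of 27 fixed lists (327 genes) with 10 or more UMIs. Levels are CPM, UMIs per 1000000 UMIs of the summed class. Libraries are the replicates, and 1 of the 2 pooled replicates 1 and 2, so animals within it could not be told apart. The members' summed depth was 722728 and 215744 UMIs, and 3 UMIs were the floor for a gene at 0. Littermates without Cre were not analysed here. A few genes of the lists are not reported here.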

Additional observations from a re-analysis of the deposited data

How the results depend on the processing

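The share of alpha-beta T cells, 4.38% as the mean of the libraries, lay between 4.13 and 4.71% under the other limits tried and was 2.62 or 6.15% with 1 library left out. Thinned to 1000 UMIs per barcode, 11.2% of members held Cd4 (33.4% unthinned, 27.6 to 39.1% by library) and 23.1% Cd8a or Cd8b1 (41.0%, 34.8 to 47.1% by library). Foxp3 was at 6.67% thinned (4.65 and 8.70% by library), against 19.2% unthinned (8.05 to 30.4% by library). For alpha-beta T cells over Trdc-positive lymphocytes, 83 genes higher and 101 lower became 136 and 319 by DESeq2, 265 and 246 without a filter on low counts, and 157 and 231 with only the classes compared in the fit, while at 5% or more ribosomal UMIs 159 were lower. Without the replicate block (library as a covariate) the counts were 87 and 104. The genes tested differed as well. They were 10315 in the main fit, 21795 without a filter, 3073 with only the classes compared and 11156 at the ribosomal limit. For the Cd8 gate over the Cd4 gate, 0 higher and 3 lower became 15 and 24 by DESeq2, 54 and 50 without a filter, 10 and 19 with only the groups compared, and 7 and 5 at 5% or more ribosomal UMIs, and 4 were higher without barcodes over 1% other-lineage UMIs, an alternative chosen after seeing the data. For Foxp3-positive over Foxp3-negative members, 4 higher and 16 lower became 131 and 111 by DESeq2, 168 and 211 without a filter, 0 and 0 with only the groups compared, 66 and 166 at 5% or more ribosomal UMIs, and 11 and 30 without barcodes over 1% other-lineage UMIs. Genes tested between the gates were 5846 in the main fit, 21784 without a filter and 2128 with only the groups compared. For Foxp3 they were 8522, 21794 and 1769 in that order. The ribosomal limit left 86 of 87 members of the first library and all 23 of replicate 3. It also took the neutrophils, left with 15 and 7 barcodes, out of the fit. The cause of the shifts in all 3 comparisons was not tested. No named gene turned direction under any alternative. None did in either library alone, but genes named for the largest change had been chosen for the same direction in both. For those genes this was set by the choice and shows nothing more. Among named genes, 28, 1 and 16 lost their call under at least 1 alternative in the 3 comparisons in that order, 11 of the first 28 without barcodes over 1% other-lineage UMIs. With 1 library left out no residual degrees of freedom remain, so those counts could not be fitted. No paired analysis beyond the library term was possible because replicate numbers do not recur across groups. With 7 or 8 barcodes per subset in replicate 3, depth limits what the subset comparisons can show.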
